A study of Rattus norvegicus with 4 samples.

Results

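The genes described here are 10 rat genes known to be raised by glucocorticoids: Fkbp5, Tsc22d3, Nfkbia, Zbtb16, Sgk1, Pdk4, Ddit4, Errfi1, Cdkn1a and Arrdc2. They are 10 of the 13440 genes that the probes of a 2-colour rat array named, and every probe whose accession maps to one of them was taken, 15 of 41012. Each of the 4 arrays set the hypothalamus of 1 male Sprague Dawley rat given triiodothyronine (T3, the active thyroid hormone) against that of 1 rat given saline. All 8 rats, the saline controls included, had been made hypothyroid with methimazole, a blocker of thyroid hormone synthesis, at 0.025% in their water over 22 days. T3 at 25 µg per 100 g or saline was injected on day 21 and a block of hypothalamus was taken 24 hours later, when the rats were 10 weeks old. The study therefore compares hypothyroid rats with and without 1 day of hormone replacement, with no euthyroid group among the samples. Arrays 1 and 3 carried the T3 rat in the Cy5 dye, and the dyes were swapped on arrays 2 and 4. The labels do not say which rat lies on which array, and each array was taken as an independent pair. All arrays lay on 1 slide, so no batch could be tested. The labels used here give no corticosterone level for any rat.

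Glucocorticoids leave the adrenal gland in a daily rhythm and in stress, enter brain cells and bind the glucocorticoid receptor, which moves to the nucleus and binds DNA near its target genes. The 10 genes are read in many tissues as a record of that activity. They brake the hormone signal itself (Fkbp5), restrain inflammation (Tsc22d3, Nfkbia) and hold back growth, cell division and glucose oxidation (Ddit4, Errfi1, Cdkn1a, Pdk4). In the hypothalamus the same receptor closes the feedback loop on the stress axis. Thyroid hormone acts through a related nuclear receptor, and Klf9 is a known target of both hormones.

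Log2 ratios below are T3 over saline, so that 0 is no difference and 1 is a 2-fold higher value after T3. Errors are SD over the 4 arrays. An adjusted p is limma's with Benjamini-Hochberg adjustment over all 23141 probes that were well above background, and 0.05 was the threshold. Probes were retained if at least 3 arrays showed them well above background in one and the same treatment, T3 or saline. That kept 11 of the 15 probes, standing for 8 of the 10 genes.

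None of the 8 measured genes passed the threshold, while 23 of the 23141 kept probes (0.0994%) did. The 8 genes split evenly, with 4 means above 0 and 4 below, and their median log2 ratio was 0.0058, against 0.0043 over all 9291 named genes measured. Unadjusted p was under 0.05 for 2 of the 8, Errfi1 above 0 and Sgk1 below it, against 8.12% of all kept probes. All 4 arrays were above 0 for 2 of the 8, Errfi1 and Arrdc2 (8.11% of the 22634 kept probes with a value on every array), and all 4 below 0 for Sgk1 alone (8.07%). For Arrdc2 a channel was not well above background on arrays 2, 3 and 4, so its sign there is uncertain, and its mean was -0.030 in the authors' deposited table. The 8 unadjusted 95% intervals all lay within 1.5-fold in either direction, and those of Fkbp5, Tsc22d3 and Nfkbia lay within 1.2-fold. A p that misses the threshold does not show that the levels were equal, and in a tissue block fewer cells of a type and less RNA per cell cannot be told apart.

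**Figure D1:**
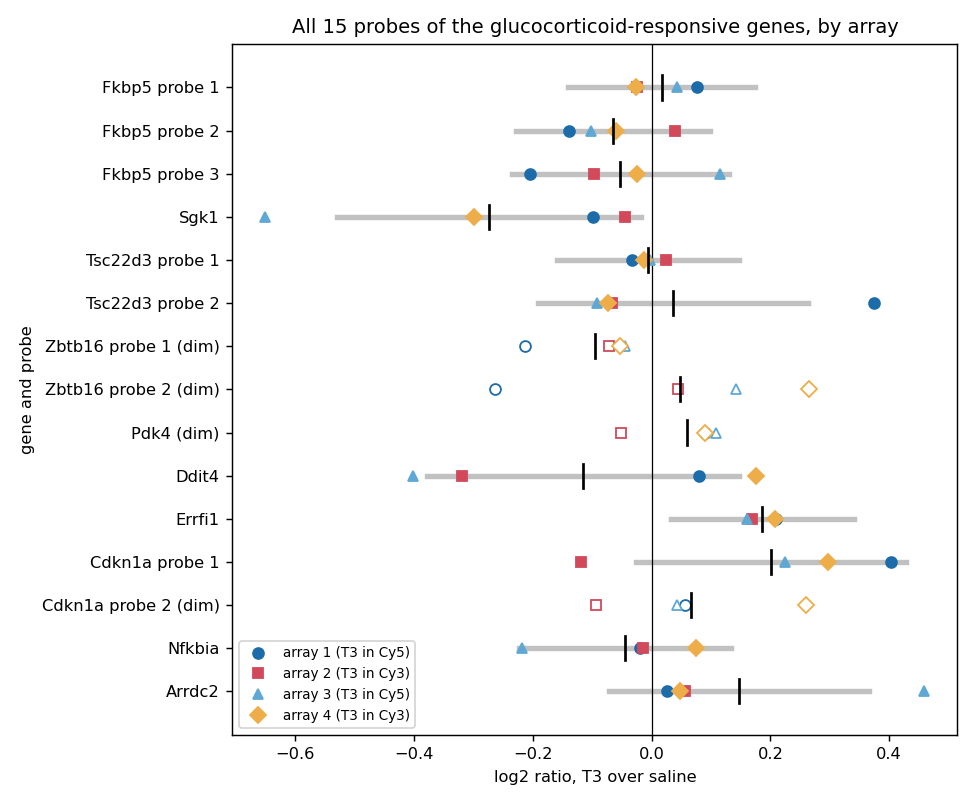
Log2 ratio of T3 over saline (x axis) for all 15 probes (y axis). Each symbol is 1 array, a black tick the mean, a grey bar limma's unadjusted 95% interval, and open symbols mark probes that were not kept. Errfi1 lies at 0.16 to 0.21 on every array, Sgk1 reaches -0.65 on array 3, and the first Tsc22d3 probe stays within 0.032 of 0.

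The upstream sequences of the 2 genes with the smallest p are shown because their ratios lay on opposite sides of 0. They are the 250 bases before a RefSeq start (build GRCr8), read 5′ to 3′ on the gene's strand, with the letters TATAAA in capitals. The Errfi1 window is chr5:166606591-166606840 on the plus strand. The Sgk1 window is chr1:24807232-24807481 on the minus strand, the first of 3 Sgk1 starts in the table, and the probe was not tied to any 1 of them.
Errfi1: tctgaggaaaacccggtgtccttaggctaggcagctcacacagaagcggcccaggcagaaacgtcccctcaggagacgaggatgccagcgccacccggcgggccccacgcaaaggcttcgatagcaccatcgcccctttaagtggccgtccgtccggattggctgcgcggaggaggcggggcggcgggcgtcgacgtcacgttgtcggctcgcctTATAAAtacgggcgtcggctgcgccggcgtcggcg
Sgk1: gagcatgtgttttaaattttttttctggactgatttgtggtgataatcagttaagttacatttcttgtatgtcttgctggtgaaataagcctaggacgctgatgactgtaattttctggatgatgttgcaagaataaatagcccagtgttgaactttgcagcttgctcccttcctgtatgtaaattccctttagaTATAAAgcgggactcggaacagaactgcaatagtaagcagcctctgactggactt

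The table held 13 windows of 300 bases (250 before to 50 after a start) for 9 of the 10 genes. TATAAA on either strand was in 5 of the 13 windows and in 14.2% of all 33469 promoters. Sgk1 was counted there at separate starts, and the Nfkbia match lies after the start, at position 18 on the minus strand. In the 2 windows shown it begins at positions -35 (Errfi1) and -55 (Sgk1) from the start. The half-site of the glucocorticoid receptor, AGAACA, was in 0 of the 13 windows on either strand and in 20.7% of all promoters. The full glucocorticoid response palindrome, which contains that half-site, was in 0 of 13 and in 0.0149% of all. The thyroid hormone receptor half-site AGGTCA was in 0 of 13 and in 16.2% of all, and its direct repeat with a 4-base spacer in 0 of 13 and in 0.00598%. These counts say only that the letters are not in these windows, since the receptor often binds far from a start. The median GC content was 59.7% in the windows of these genes and 51.7% in all promoters. The shares were not adjusted for this, and the 13 windows hold Sgk1 and Tsc22d3 at several starts each.

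The genes that brake the glucocorticoid and inflammatory signals had mean ratios of 0.017 (Fkbp5), -0.0056 (Tsc22d3) and -0.044 (Nfkbia). In the authors' deposited table, whose log base is not stated, the means were 0.036, -0.19 and -0.12, the last 2 farther from 0 than Cdkn1a or Arrdc2 there. Fkbp5 encodes a co-chaperone of hsp90 that lowers the affinity of the glucocorticoid receptor for its hormone, and it is among the most widely used markers of receptor activity in brain. Its brightest probe had log2 channel values of 10.83, 10.95, 10.97 and 11.03 in the T3 rats of arrays 1 to 4 and of 10.76, 10.98, 10.93 and 11.06 in their saline partners. The groups overlapped fully, and the ratios of 0.077, -0.025, 0.043 and -0.025 changed sign with the dye, positive with T3 in Cy5 and negative with T3 in Cy3. The mean was 0.017 ± 0.051 (SD, n = 4 arrays), or 1.01-fold with a 95% interval of 0.908 to 1.13 (limma adjusted p = 0.99). The other 2 Fkbp5 probes, matched to the same accession, gave -0.065 ± 0.077 and -0.053 ± 0.13 (limma adjusted p = 0.91 and 0.95), with intervals of 0.854 to 1.07-fold and 0.850 to 1.09-fold. The intervals of the 3 probes overlapped, and none of the probes had 1 sign on all arrays.

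Tsc22d3 encodes the leucine zipper protein GILZ, which carries part of the anti-inflammatory action of glucocorticoids. On its bright probe the T3 rats had log2 values of 13.94, 13.64, 13.77 and 14.07 and the saline rats 13.97, 13.62, 13.77 and 14.08. Each T3 rat matched the saline rat on its own array, while both moved together between arrays. The ratio was -0.0056 ± 0.024 (SD, n = 4 arrays), the smallest spread of the 8 genes, with a 95% interval of 0.896 to 1.11-fold (limma adjusted p = 1.00). In the authors' deposited table the same probe was at -0.36, 0.16, -0.73 and 0.18 on arrays 1 to 4, far wider than the scanner ratios. A second, dimmer Tsc22d3 probe gave 0.38 on array 1 and -0.092 to -0.066 on the others (mean 0.036 ± 0.23, limma adjusted p = 0.97). On array 4 that spot was not well above background in either channel, at raw signals of 70.5 and 139 over backgrounds of 50 and 112, where arrays 1 to 3 had 316 to 362 in Cy3 and 759 to 960 in Cy5. Of the 23 spots within 2 rows and 2 columns of it, 10 were well above the Cy3 background on arrays 1 to 3, and 4 of these were so on array 4. Their Cy3 brightness there was lower by a median log2 of -2.25 than on arrays 1 to 3, against -2.24 for the Tsc22d3 spot. The scanner software had not marked this spot, and the neighbours were examined after its values were seen.

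Nfkbia encodes the inhibitor that holds NF-kappaB in the cytoplasm. Its T3 values were 10.25, 10.33, 10.37 and 10.39, and its saline values 10.27, 10.34, 10.58 and 10.32. Only the saline rat of array 3 stood above the rest, and the ratios were -0.019, -0.014, -0.22 and 0.075. The mean of -0.044 ± 0.12 had a 95% interval of 0.857 to 1.10-fold (limma adjusted p = 0.96). Zbtb16, a zinc finger repressor that glucocorticoids raise strongly in many cell types, was not well above background in either channel of any array. Its 2 probes had raw signals of 111.5 to 135 in Cy5 and 67 to 79 in Cy3, over backgrounds near 100 and 50, so no comparison is drawn from its ratios.

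Sgk1 and Errfi1, with a kinase and a kinase inhibitor as products, were the members farthest from 0 by p, in opposite directions. Sgk1, a kinase that controls ion channels and transporters and is rich in oligodendrocytes, had saline values of 10.69, 10.10, 10.66 and 11.23 on arrays 1 to 4. Its T3 values were 10.59, 10.06, 10.01 and 10.93, each below the saline partner, although the 2 groups overlapped widely. The ratios were -0.099, -0.045, -0.65 and -0.30, so that array 3 held the lowest. The mean was -0.27 ± 0.27 (SD, n = 4 arrays), or 0.827-fold with a 95% interval of 0.693 to 0.988 (limma unadjusted p = 0.039, adjusted p = 0.57). Without replicate 3 the mean was -0.15. By dye it was -0.37 with T3 in Cy5 and -0.17 with T3 in Cy3. Sgk1 also differed much between pairs of rats, with an SD of 0.46 over the saline channels, where the median kept probe had 0.21.

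Sgk1 was lower in every T3 rat in the authors' deposited table too, at log ratios (base not stated) of -0.50, -0.47, -0.12 and -0.15 on arrays 1 to 4. There the low arrays were 1 and 2, not 3 and 4. The direction of that table was itself read from its correlation with these ratios over all kept probes (0.43, 0.42, 0.19 and 0.28), and its columns 3 and 4 correlate at -0.51, so this is no independent evidence. The oligodendrocyte markers, of which all 10 were measured, had 7 means below 0, while 51.9% of all named genes had a mean above 0. Of these markers 0 passed the threshold (limma). An unadjusted limma p under 0.05 was reached by 4 of them, all below 0, against 8.12% of all kept probes. The marker medians were -0.17, -0.35, -0.12 and 0.10 on arrays 1 to 4. Array 3, with the lowest Sgk1 ratio, was also the array with Ttr of the choroid plexus at 3.53 and the neuropeptide precursor Avp at -2.63. The part of these in the Sgk1 ratio was not tested.

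Errfi1 encodes MIG6, an inhibitor of the EGF receptor kinase, and had the smallest p of the 8 genes. Its T3 values were 13.33, 13.30, 13.45 and 13.47, and its saline values 13.12, 13.13, 13.29 and 13.27. The 4 T3 values all lay above the 4 saline values. It was the only member whose groups did not overlap, which held with T3 above for 0.981% and with T3 below for 0.614% of the 22634 kept probes. The ratios of 0.21, 0.17, 0.16 and 0.21 gave a mean of 0.19 ± 0.026 (SD, n = 4 arrays), or 1.14-fold with a 95% interval of 1.02 to 1.27. The limma unadjusted p was 0.024 and the adjusted p 0.51. The mean was 0.19 in both dye orientations. In the authors' deposited table the mean was 0.18, but the arrays spread from -0.34 on array 3 to 0.68 on array 4. The 3 genes outside the lists whose 4 ratios lay nearest to those of Errfi1 were Unc119b, Slc25a42 and Nacad, at Euclidean distances of 0.039, 0.043 and 0.054. Their means were 0.19, 0.18 and 0.17, all without passing (limma adjusted p = 0.50, 0.54 and 0.57).

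**Figure D2:**
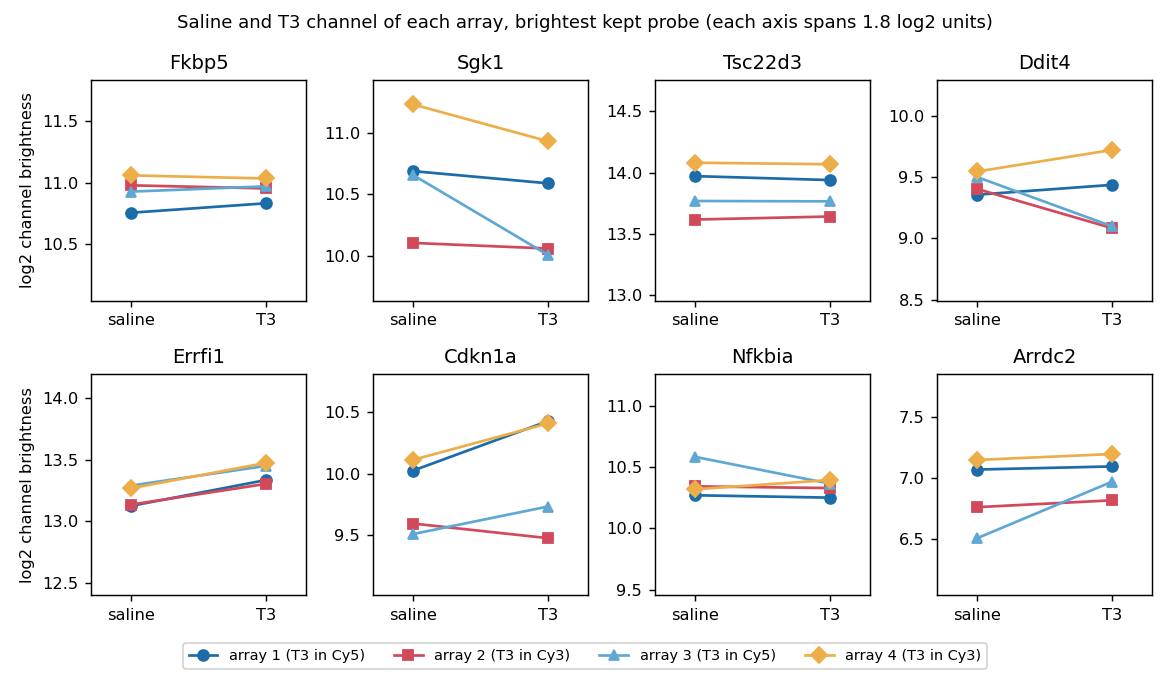
Log2 brightness of the saline and the T3 channel after normalization (y axis, 1.8 log2 units in every panel) for the brightest kept probe of each of the 8 measured genes. A line joins the 2 rats of 1 array. Errfi1 slopes up on all 4 arrays and Sgk1 slopes down on all 4. For Tsc22d3, Sgk1 and Cdkn1a, among others, the arrays lie farther apart than the ends of most lines.

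Of the genes that restrain division and growth, Cdkn1a had a mean above 0 and Ddit4 a mean below it, and neither passed (limma). Cdkn1a encodes p21, which stops the cell cycle. Its kept probe was printed 10 times on each array, which shows the noise between spots but not that of labelling, hybridization or dye, which the spots of an array share. The mean ratios were 0.40, -0.12, 0.22 and 0.30 on arrays 1 to 4, positive on 3 of 4. The SD between spots of an array was 0.058, 0.072, 0.092 and 0.072 over 10, 10, 8 and 9 spots, the other spots being marked as outliers by the scanner software. The SD between arrays, which holds these and the rats' own differences together, was 0.23. On array 2 the highest spot was at 0.00098, while the lowest spot of any other array was at 0.059, so the spots of array 2 did not overlap those of the others. The mean of 0.20 ± 0.23 (SD, n = 4 arrays) was 1.15-fold with a 95% interval of 0.982 to 1.35 (limma adjusted p = 0.67). It was 0.31 with T3 in Cy5 and 0.089 with T3 in Cy3. Leaving out 1 replicate gave 0.13 (without replicate 1) to 0.31 (without replicate 2), and the mean in the authors' deposited table was 0.065. T3 values of 10.43, 9.48, 9.73 and 10.41 overlapped with saline values of 10.03, 9.59, 9.51 and 10.11. Arrays 1 and 4 were high in both rats and arrays 2 and 3 low in both. A second Cdkn1a probe was well above background in 1 T3 channel alone and was not kept.

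**Figure D3:**
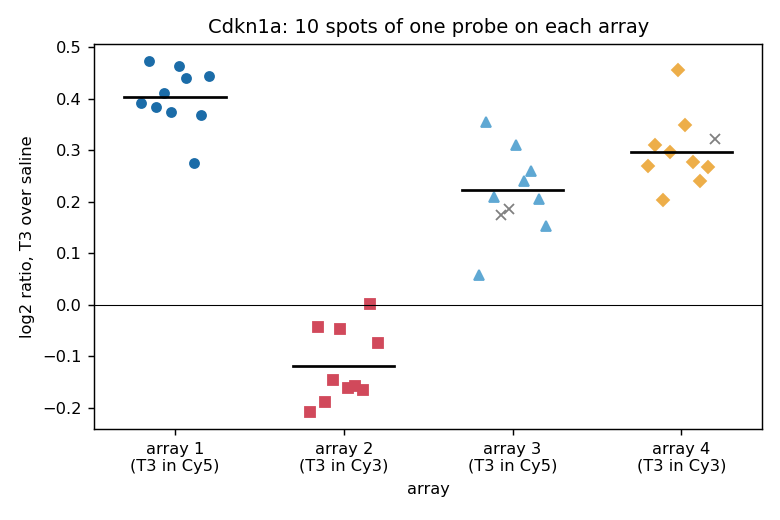
Log2 ratio of T3 over saline (y axis) for each of the 10 Cdkn1a spots on each array (x axis). Lines are the means of the spots used, and grey crosses are spots left out as outliers. The spots of arrays 1, 3 and 4 lie between 0.059 and 0.47, and those of array 2 between -0.21 and 0.00098.

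Ddit4, which encodes REDD1, an inhibitor of the growth kinase complex mTORC1, was split between arrays. Its T3 values were 9.44, 9.08, 9.10 and 9.72 and its saline values 9.36, 9.40, 9.50 and 9.55. The saline rats were more alike (SD 0.087) than the T3 rats (SD 0.30), where the median kept probe had 0.21 and 0.20. The T3 rats of arrays 2 and 3 lay below every saline rat, that of array 4 above every one, and that of array 1 among them. The ratios of 0.080, -0.32, -0.40 and 0.18 gave a mean of -0.12 ± 0.29 and a 95% interval of 0.769 to 1.11-fold (limma adjusted p = 0.89). Without replicate 3 the mean was -0.021 and without replicate 4 it was -0.21. In the authors' deposited table (log base not stated) Ddit4 was at -0.42, 0.18, -0.77 and 0.52 on arrays 1 to 4. Arrays 1 and 2 thus had the opposite signs there.

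Arrdc2, an alpha-arrestin, was dim. It was well above background in 2 of 4 T3 channels and 3 of 4 saline channels. Its T3 values were 7.09, 6.82, 6.97 and 7.20 and its saline values 7.07, 6.76, 6.51 and 7.15. The groups overlapped, with the saline value of array 3 the lowest. That saline spot was not well above background, so the array 3 ratio of 0.46 rests on a signal near background. The other ratios were 0.025, 0.056 and 0.048. The mean was 0.15 ± 0.21, with a 95% interval of 0.952 to 1.29-fold (limma adjusted p = 0.78), and 0.043 without replicate 3.

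Pdk4 encodes the kinase that shuts off pyruvate dehydrogenase and spares glucose, and it is raised by glucocorticoids and by thyroid hormone in liver and muscle. It was not well above background in any channel here. Raw T3 signals were 130, 74, 116 and 79 over local backgrounds of 103, 51, 93 and 48, and raw saline signals 76, 134.5, 68 and 141 over 55, 102, 50 and 101.5. No comparison is drawn from these signals, and the data do not bear on whether Pdk4 differed.

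The members lay on both sides of 0 on every array. Of the 8 genes, 5, 3, 4 and 5 were above 0 on arrays 1 to 4, and the median ratio was 0.051, -0.019, 0.020 and 0.062. Array 3 had the widest range, from Sgk1 at -0.65 to Arrdc2 at 0.46, with an SD between the 8 genes of 0.36, against 0.14 to 0.18 on the others. Over all named genes the SD on array 3 was 0.26, close to the 0.23 to 0.26 of the other arrays. The median size of the mean ratio, sign left aside, was 0.13 for the 8 genes and 0.067 for all named genes. The median SD over arrays was 0.17 and 0.16.

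Of 18 listed receptors, chaperones and steroid enzymes, 13 were measured, 6 with a mean above 0 and 7 below, and 0 passed (limma; 2 at an unadjusted p under 0.05, which 8.12% of all kept probes had). Those 2 were the pair of enzymes that set the local level of active glucocorticoid. Hsd11b2, which inactivates it, was at 0.36, 0.027, 0.26 and 0.21 (mean 0.21 ± 0.14, limma adjusted p = 0.54). Hsd11b1, which regenerates it, was at -0.53, 0.050, -0.13 and -0.59 (mean -0.30 ± 0.31, limma adjusted p = 0.57). The first was higher on 4 of 4 arrays and the second lower on 3 of 4. The receptor genes were looked up after the results were known: Nr3c1, the glucocorticoid receptor, was at -0.050 ± 0.13, and Nr3c2, the mineralocorticoid receptor, at -0.034 ± 0.17. The list median was -0.034.

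Among 30 further genes known to be raised by glucocorticoids, 27 were measured, with 14 means above 0 and 13 below, a median of 0.033 and 0 past the threshold (limma). At an unadjusted limma p under 0.05 there were 2 with a mean above 0 and 3 with a mean below it. Of all kept probes, 8.12% had such a p in either direction. Klf9, the target shared with thyroid hormone, was at 0.77, 0.59, 1.19 and 1.07 (mean 0.90 ± 0.27, limma adjusted p = 0.052). Mt2A, a metallothionein that both metals and glucocorticoids raise, was at -0.52, -0.55, -0.40 and -0.51 (mean -0.50 ± 0.064, limma adjusted p = 0.069). These 2 lay on opposite sides of 0 and outside the range of the 8 members. The other 3, named after their values were seen, were Gadd45g at 0.22, Klf15 at -0.26 and Angptl4 at -0.23 (limma adjusted p = 0.50, 0.36 and 0.52). Per1, a clock gene with a strong glucocorticoid response and likewise named afterwards, was at -0.094 ± 0.15.

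Of 12 stress axis peptides and receptors, 9 were measured, 5 with a mean above 0 and 4 below, and 0 passed (limma; 0 at an unadjusted p under 0.05). Crhbp, which binds corticotropin-releasing hormone, was at 0.19 ± 0.27, and Pomc, the precursor of corticotropin, at -0.23 ± 0.49 (limma adjusted p = 0.75 and 0.84). Crh itself, named after its value was seen, was at 0.57, -0.16, 0.28 and -0.37. The spread of these genes over arrays was larger than their means.

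For comparison, 12 known targets raised by thyroid hormone had 11 means above 0 and a median of 0.28. Of these, Hr (1.18 ± 0.15) and Cyp26b1 (1.10 ± 0.26) passed (limma adjusted p = 0.013 and 0.024). Cyp26b1 was listed with its result known. This list and the immediate early genes were both chosen with earlier results of these data known. Their counts, medians and calls, Hr and Arc included, are therefore no independent evidence. Of 13 immediate early genes 10 were measured, 9 had a mean above 0, the median was 0.19, and Arc passed at 1.42 ± 0.28 (limma adjusted p = 0.013).

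**Figure D4:**
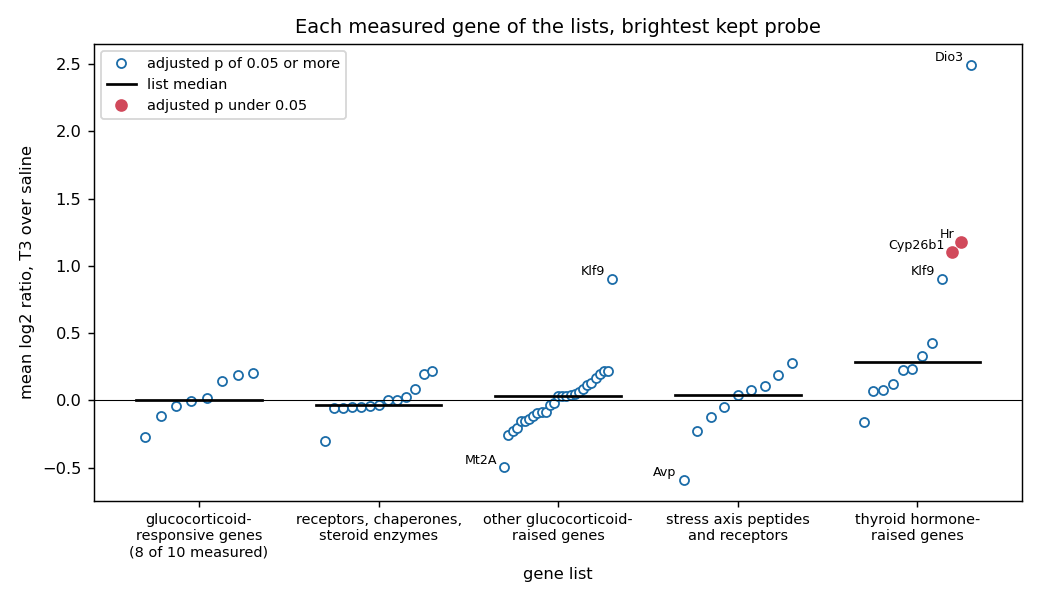
Mean log2 ratio of T3 over saline (y axis) for each measured gene of 5 lists (x axis), by the brightest kept probe, with Klf9 in 2 of the lists. Filled points passed the threshold, open points did not, and a bar is the list median. The 8 glucocorticoid-responsive genes lie between -0.27 and 0.20. The 12 thyroid hormone-raised genes were chosen with earlier results of these data known. Of these 12, 8 had an unadjusted limma p under 0.05, all above 0, against 8.12% of all kept probes in either direction.

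Hypothalamic identity was checked on 15 marker genes, of which 10 were measured. Hcrt, Pmch, Agrp and Hdc were well above background on 4 of 4 arrays in both channels, while Otp and Lhx6 were so on no array. Of the 10, 9 had a mean below 0, while 51.9% of all named genes had a mean above 0. The median was -0.092 and 0 passed the threshold (limma). Hdc at -0.31 and Hcrt at -0.24 had an unadjusted limma p under 0.05, which 8.12% of all kept probes had. The part of these markers in the ratios of the 8 genes was not tested. Lists of neuronal, glial, vascular, choroid plexus, ependymal, blood, meningeal and pituitary markers held 0 genes past the threshold, with list medians from -0.23 to 0.44. Single arrays stood out in some, with Hbb-b1 of red blood cells at -4.25 on array 2 and Ttr at 3.53 on array 3. The share of spots well above background was 51.0% to 68.3% over T3 channels and 52.4% to 63.6% over saline channels.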

How the data were processed

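Per the file headers, the 4 deposited scanner outputs came from Agilent Feature Extraction 10.7.3.1 and give each spot's median intensity and local background in both dyes. The deposited processed signals and their log10 ratio (Cy5 over Cy3) are background-subtracted and dye-normalized, per the file headers. The submitters' processing notes name limma 3.18.9. The authors' deposited table was read as log2 ratios, but its log base and centring are not given in the sources used here. Column medians were 0.0026, -0.0024, 0.0021 and 0.0030. The columns correlated with the T3 over saline ratios of their own arrays at 0.43, 0.42, 0.19 and 0.28 over kept probes, which are not independent, and its columns 3 and 4 with each other at -0.51. They were read as T3 over saline from these signs and used as an alternative only.

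In limma 3.58.1 (R 4.3.3), background was corrected with normexp (offset 50) and each array normalized by loess (control spots weighted 0). Spots marked as outliers were dropped, controls too, before averaging repeat spots. Channel values were scaled between arrays by Aquantile. Ratios were fitted with lmFit and eBayes, each array as 1 pair of rats (3 residual and 4.35 prior degrees of freedom), and the script was tested on simulated data. The number of arrays limits the precision.

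Probe accessions, stripped of versions, were looked up in RefSeq's gene table (GRCr8): 16964 probes had 1 symbol and 24048 had none or more than 1. The brightest kept probe stood for a gene. The genes and lists were chosen with earlier results of these data known. Named were all 10 genes, of each other list those past the threshold or else the 2 with the smallest p, and of marker lists the counts, medians and farthest values. All arrays shared 1 slide.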

Additional observations from a re-analysis of the deposited data

Results flagged for a closer look

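In 4 of 32 items examined (15 probes of the 10 genes and the medians of gene lists), 1 array lay far from the other 3. Chance gives about 1 in 20, but the items share the same arrays and are not independent. The share over all kept probes was not computed, so the count is not read as a trait of the 10 genes. All 4 were probes of the 10 genes, and the gap to the nearest other array is given over the whole range. For the dimmer Tsc22d3 probe, array 1 gave 0.38 and the rest -0.092 to -0.066 (0.944). Its spot on array 4, among the rest, was not well above background in either channel. Arrdc2 was at 0.46 on array 3 against 0.025 to 0.056 (0.930), with a saline spot there that was not well above background. The other 2 were probes that were not well above background on any array: Pdk4 at -0.051 on array 2 against 0.089 to 0.11 (0.876), and the brighter Zbtb16 probe at -0.21 on array 1 against -0.071 to -0.044 (0.840). Both rest on signals near background, so these gaps measure no difference between rats and should not be counted against chance.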

How the results depend on the processing

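Over 17 alternative settings the 10 genes had 169 values, of which 137 had an adjusted p and 0 passed the threshold. Zbtb16 and Pdk4 were tested only without a filter on dim probes, and Arrdc2 had no value under the strictest filter. Of the values of the 8 measured genes, 127 kept their direction and 8 did not. Fkbp5 was at -0.016 with Agilent's processed signals, -0.030 with median centring, -0.034 with the mean of its probes and from -0.0026 (without replicate 1) to 0.031 on leaving out 1 replicate. Tsc22d3 was at -0.19 in the authors' deposited table, 0.015 with the mean of its probes and from -0.016 to 0.0032 (without replicate 1) on leaving out 1 replicate, Nfkbia from -0.084 to 0.014 (without replicate 3) on leaving out 1 replicate, and Arrdc2 at -0.030 in the authors' deposited table. Errfi1 ranged from 0.14 to 0.20 and Sgk1 from -0.35 to -0.15 (limma adjusted p from 0.28 and 0.38 to 1.00). The median of the genes was -0.042 with median centring and -0.073 in the authors' deposited table. The causes were not tested.

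Probes past the threshold, 23 in all, were 0 with Agilent's processed signals (1597 at an unadjusted p under 0.05), 0 with median centring (131), 0 with trend and robust eBayes (1162), 4 with an offset of 10, 10 in the authors' deposited table, 15 with a dye term, 67 without the filter and 90 at an adjusted p of 0.1. Leaving out 1 replicate gave 0 to 70: 70 without replicate 2, and 0 without replicates 1, 3 or 4 (1401, 1381 and 1578 at an unadjusted p under 0.05). Near background the offset limits what a ratio can show: Arrdc2 was at 0.15 with an offset of 50 and 0.24 with 10. The block on slides was not run because all arrays shared 1 slide.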
